A study of Mus musculus with 9 samples.

Results

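The proteasome genes described here are the 48 rows, of 54838 genes in the expression table, whose mouse symbol is Psma, Psmb, Psmc, Psmd, Psme, Psmf or Psmg followed by a number. They were taken by symbol alone, with no filter on their values, although earlier results of these data were known when the members were chosen. Of the 48, 47 had an RPKM (reads per kilobase of transcript, scaled by library size) of at least 0.5 in at least 3 libraries and were tested with 18889 genes in all. Psmb11, the thymus-specific beta subunit, was not tested, with at most 0.0545 RPKM in any library. RNA sequencing was done on ovaries of adult mice 40 h after PMSG, pregnant mare serum gonadotropin, which drives follicles to grow. There are 9 libraries in 3 genotypes of 3 libraries each. WT is wild type. DKO is labelled DKO LXR, and DKO_TG is labelled DKO LXR TG-AMH-LXRb. LXR stands for the liver X receptors, oxysterol-sensing nuclear receptors encoded by Nr1h3 and Nr1h2. DKO and DKO_TG are both labelled as the knockout of these receptors, and DKO_TG also as carrying a transgene whose label joins AMH and LXRb, the receptor encoded by Nr1h2. All 3 groups received PMSG. The labels do not say whether AMH names the promoter of the transgene, whether ovaries were pooled or whether libraries come from separate animals. P-values therefore measure the spread between these libraries, which may be technical.

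The proteasome is the main protease of the cytosol and nucleus and degrades proteins that carry ubiquitin chains. Its 20S core is a barrel of alpha rings, which gate the entrance, and beta rings, which hold the catalytic sites on Psmb5, Psmb6 and Psmb7. The 19S cap binds ubiquitinated proteins, removes the ubiquitin and unfolds the chain with a ring of ATPases. Immunoproteasomes carry Psmb8, Psmb9 and Psmb10 in place of the constitutive catalytic subunits. They are induced by interferon, are abundant in immune cells and make peptides suited to display on MHC class I.

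Promoters are shown for 4 members whose values span the results: the catalytic subunits Psmb5 and Psmb6 and the cap subunit Psmd2, which fell in DKO, and the ATPase Psmc6, which was not called. The sequences come from RefSeq on GRCm38.p6 and run 5′ to 3′ on the strand of the gene, up to its start or to the first base of an annotated exon. Capitals mark TGACNNNGC and TGAGNNNGC, letters of the antioxidant response element to which NRF1 (Nfe2l1), the activator of proteasome genes, is known to bind, and CCGGAAG, a core of ETS factor sites. Each was searched on both strands. The Psmb5 promoter is chr14:54618023-54618245 on the minus strand. That of Psmb6 is chr11:70525107-70525356, that of Psmd2 is chr16:20651402-20651651 and that of Psmc6 is chr14:45329574-45329787, all on the plus strand.
Psmb5 promoter: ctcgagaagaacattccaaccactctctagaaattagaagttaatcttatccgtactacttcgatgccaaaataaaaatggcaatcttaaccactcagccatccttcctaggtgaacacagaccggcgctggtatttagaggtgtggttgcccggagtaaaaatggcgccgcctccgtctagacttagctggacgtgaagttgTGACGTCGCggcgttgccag
Psmb6 promoter: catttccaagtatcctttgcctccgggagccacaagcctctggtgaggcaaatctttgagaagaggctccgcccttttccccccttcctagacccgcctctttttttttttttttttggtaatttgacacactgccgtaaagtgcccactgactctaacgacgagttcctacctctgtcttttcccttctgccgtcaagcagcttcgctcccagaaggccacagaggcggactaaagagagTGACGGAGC
Psmd2 promoter: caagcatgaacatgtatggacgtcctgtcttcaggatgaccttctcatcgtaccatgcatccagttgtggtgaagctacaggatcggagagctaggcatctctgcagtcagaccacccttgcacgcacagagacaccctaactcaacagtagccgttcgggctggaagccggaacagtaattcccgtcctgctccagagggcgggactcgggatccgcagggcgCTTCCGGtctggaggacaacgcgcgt
Psmc6 promoter: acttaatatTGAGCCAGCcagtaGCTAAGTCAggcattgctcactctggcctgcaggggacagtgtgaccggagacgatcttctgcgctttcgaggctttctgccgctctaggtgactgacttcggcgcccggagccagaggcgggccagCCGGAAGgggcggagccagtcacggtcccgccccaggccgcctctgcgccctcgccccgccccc
Psmb5 and Psmb6 each hold 1 match to TGACNNNGC and Psmd2 holds 1 to CCGGAAG on the minus strand. Psmc6 holds 3 matches, 1 to each motif, and was not called lower. Psmd12 also has all 3 motifs in its windows and was called lower (log2 change -0.62). Psmc2, of the same ring as Psmc6, has TGAGNNNGC and CCGGAAG and was called lower (-1.07).

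Across the 43 promoter windows of 300 bases or less that RefSeq gives for 40 members, CCGGAAG was present in 34.9%, against 8.86% of all 32851 windows of the same kind. TGAGNNNGC was present in 30.2% against 17.6%, and TGACNNNGC in 14.0% against 12.4%. The GC box GGGCGG was in 55.8% against 35.7%, and a core motif of the interferon-stimulated response element was in 11.6% against 3.44%. The latter was found for Psmb3, Psmd4, Psmd9, Psme1 and Psmg4, and not in the windows of Psmb8, Psmb9 or Psmb10. CCAAT was in 32.6% against 37.4%, the heat shock motif TTCNNNGAA in 6.98% against 8.3% and the E-box CACGTG in 9.3% against 7.15%. A match describes the letters and is not evidence of binding. Of the 14 tested members with CCGGAAG, 11 were called lower in DKO, and of the 25 without it in their windows, 17 were. Of the 6 with TGACNNNGC 4 were called lower, and of the 33 without it 24 were.

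The libraries held 40.1 to 59.4 M reads, recovered from the RPKM values. Library size as used in the deposited RPKM was 0.793 to 0.92 times the read total in WT and 1.034 to 1.11 times in the other libraries, so the scale itself differs between WT and the others. In WT, DKO and DKO_TG in turn, Nr1h3 measured 4.68 ± 0.701, 0.807 ± 0.273 and 0.67 ± 0.145 RPKM and Nr1h2 measured 18.8 ± 3.64, 6.53 ± 1.09 and 5.67 ± 0.458 RPKM (SD, n = 3). Nr1h2 was thus no higher in the libraries labelled as carrying the LXRb transgene than in DKO, and whether the transgene was expressed was not tested. All 6 granulosa cell markers looked up were found, the lowest being Amh at a mean of 12.7 RPKM. In the same order, the nuclear RNA Malat1 measured 7.38 ± 5.03, 199 ± 19.1 and 261 ± 16.4 RPKM. Reads assigned to pseudogenes were 20.7 to 23.3% in WT, 14.9 to 18.3% in DKO and at most 16.1% in DKO_TG. Both move with genotype, and their part in the results below was not tested.

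On the deposited scale and as a share of reads, the proteasome genes as a whole were lower in both knockout groups than in WT. With RPKM rescaled to the same sum in every library, the members' median log2 change was -0.02 in DKO and 0.0807 in DKO_TG. The fall thus depends on the measure, and for the members as a whole it was absent in both groups after that rescaling. There 24 members lay below 0 and 23 above in DKO, and 21 below and 26 above in DKO_TG. Reads of the 48 members made up 0.571, 0.499 and 0.514% of all reads in the WT libraries. They made up 0.392, 0.461 and 0.425% in DKO and 0.449, 0.466 and 0.452% in DKO_TG. Every WT library was above every library of the other groups on this measure, which does not use the deposited scale. The summed RPKM of the members was 2917, 2185 and 2290 in WT, against 1377, 1780 and 1522 in DKO and 1671, 1784 and 1697 in DKO_TG, again without overlap between WT and the rest. WT replicate 1 was the highest library, and DKO replicate 1 the lowest. In RNA from whole ovaries, fewer cells of a type and less RNA per cell cannot be told apart.

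**Figure D1:**
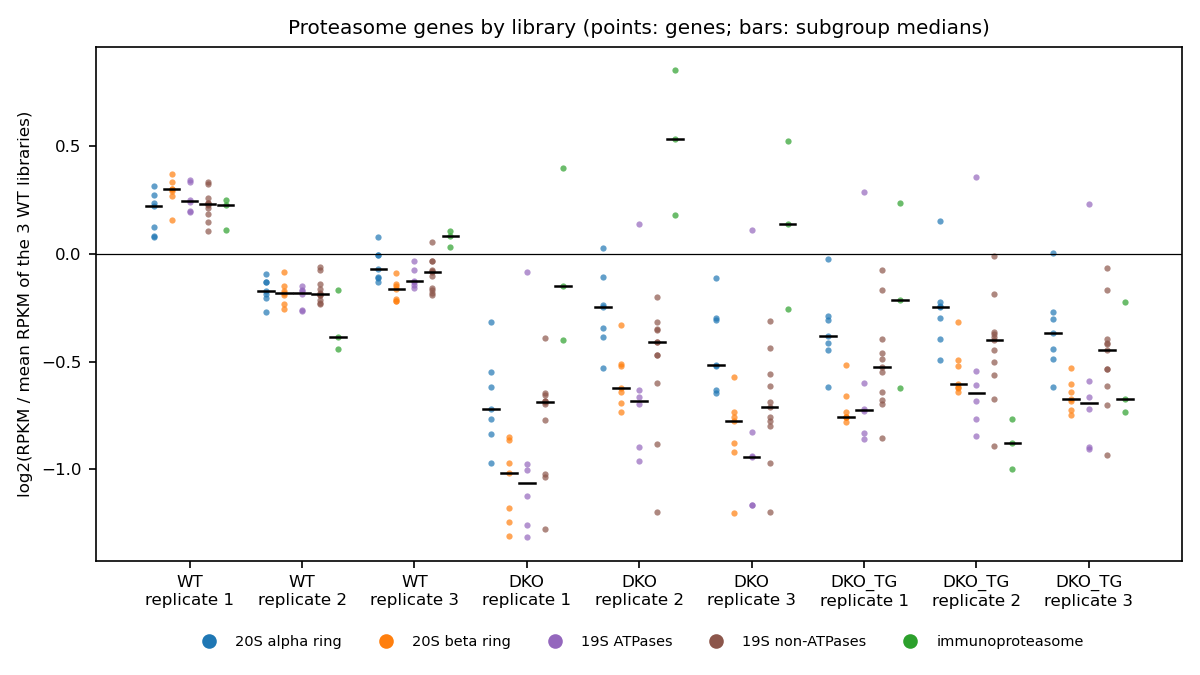
Each point is 1 proteasome gene in 1 library, as log2 of its RPKM over its mean in the 3 WT libraries, coloured by subgroup with the subgroup median as a bar. The medians of the beta ring, ATPase and non-ATPase genes lie lower in the 6 knockout libraries than in WT, although the ATPase Psmc6 does not. The immunoproteasome median lies above these medians in DKO but not in every DKO_TG library.

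In DKO against WT, 34 of the 47 tested members were called lower and 0 higher by limma at a Benjamini-Hochberg adjusted p under 0.05. Among all tested genes 25.9% were called lower and 30.8% higher. The median log2 change of the members, on the scale log2(RPKM + 0.5), was -0.57, against 0.02 for all tested genes, and 43 members lay below 0. Without WT replicate 1, the library with the highest values, 29 members were called lower with a median of -0.41. At an unadjusted p under 0.05, 35 members were lower and 1, Psmb9, was higher. Of all 18889 tested genes, 11813 passed that threshold in either direction. Voom on the recovered reads called 35 lower and 0 higher. WT and DKO libraries did not overlap for 34 members that were lower, a pattern seen in 28.6% of all tested genes. Proteasome genes are strongly expressed, and among the 4212 protein-coding genes with a mean of at least 10 RPKM, a background added after seeing the data, 43.0% were called lower and 15.6% higher, with a median of -0.27. Of the 40 members at that level, 32 were called lower, with a median of -0.58.

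The count rests on the scale. With RPKM rescaled to the same sum in every library (TPM), 11 members were called lower and 11 higher, with quantile scaling 18 lower and 2 higher, and with RPKM by plain read total 19 lower and 3 higher. TPM moved the median log2 change of all genes to 0.485 and plain totals moved it to 0.285. Below the median of all genes lay 43 of 47 members as deposited, 42 under TPM, 43 under plain totals and 32 under quantile scaling. The members' median was set against that of all genes at -0.585 as deposited, -0.505 under TPM, -0.539 under plain totals and -0.142 under quantile scaling. Ratios of members within a library do not use the scale at all and are given below for that reason.

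**Figure D2:**
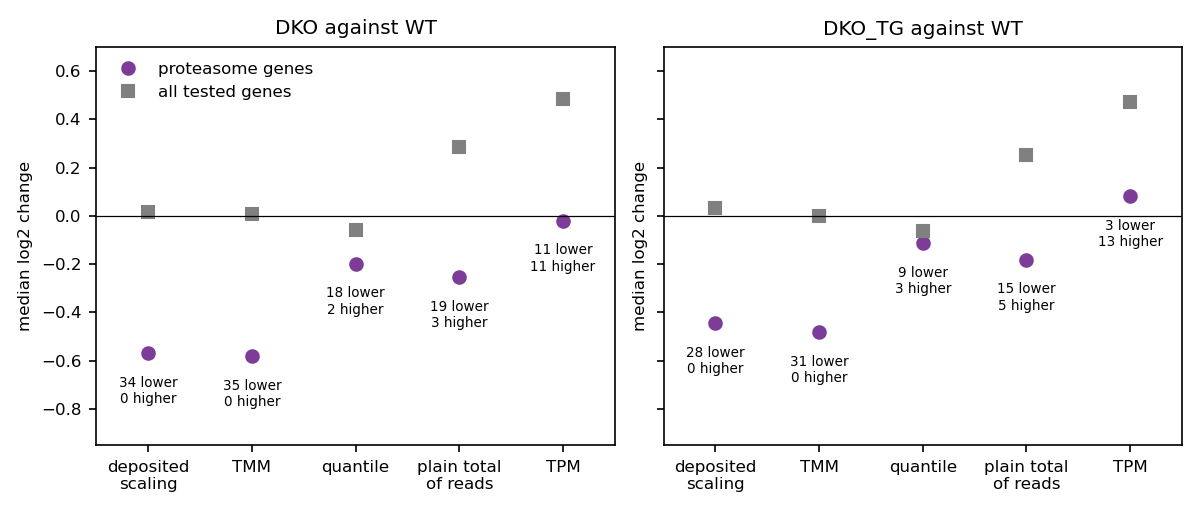
Median log2 change of the tested proteasome genes (circles) and of all tested genes (squares) under 5 scalings, with DKO against WT and DKO_TG against WT in separate panels. Under TPM the members' median is at -0.02 in DKO and 0.0807 in DKO_TG while that of all genes is at 0.485 and 0.471, so the members' sign depends on the scale.

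The beta ring of the 20S core fell as a whole, with 7 of 7 constitutive subunits called lower in DKO and a median log2 change of -0.77. Psmb5, which carries the chymotrypsin-like activity and lies at chr14:54614119-54618022, measured 175, 128 and 122 RPKM in WT and 59.9, 91.0 and 61.7 in DKO. All 3 DKO libraries were below all WT libraries, and the log2 change was -1.0 ± 0.19 (SE, limma adjusted p = 0.00222). Psmb7, the trypsin-like subunit, measured 34.3, 23.7 and 25.2 RPKM in WT and 11.2, 16.7 and 15.1 in DKO, a log2 change of -0.93 (adjusted p = 0.00226). Psmb6, the caspase-like subunit, measured 135, 99.5 and 101 RPKM in WT and 55.3, 72.8 and 66.3 in DKO, a log2 change of -0.77 (adjusted p = 0.00253). The structural subunit Psmb3 changed by -0.89 (adjusted p = 0.00339), and Psmb1, Psmb2 and Psmb4 by -0.73, -0.58 and -0.67. Psmb3, Psmb5 and Psmb7 were called lower under all 20 alternatives, while the ring had 4 lower calls under TPM, 4 under quantile scaling and 6 under plain totals. Of the exon sequence of Psmb5, 54.1% of 50-base words also occur in other genes, chiefly the pseudogene Gm3375, which was listed at 169 ± 41.1 RPKM in WT and 82.0 ± 22.4 in DKO, so the Psmb5 values are uncertain.

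The alpha ring fell less evenly. Called lower were 5 of 7 subunits, with a median log2 change of -0.50. Psma6, the member with the highest level in WT, measured 201, 144 and 154 RPKM in WT and 84.7, 115 and 107 in DKO, a log2 change of -0.70 ± 0.16 (SE, limma adjusted p = 0.00583). Psma2, Psma3, Psma4 and Psma5 changed by -0.38 to -0.58. Psma4 lost its call without WT replicate 1 or without DKO replicate 1, and Psma3 without DKO replicate 1. Psma1 was not called, with 48.2, 40.4 and 44.0 RPKM in WT and 35.5, 45 and 40.9 in DKO, groups that overlap (log2 change -0.13, adjusted p = 0.354). Psma7 was not called either (-0.30, adjusted p = 0.0951), although it was called lower without DKO replicate 2 and higher under TPM (0.24). None of these 7 subunits was called lower under TPM or quantile scaling, where Psma1 was called higher. Psma5 shares many words with the pseudogenes Gm8394 and Gm12989, so its value is uncertain. Within the core, the median RPKM of the alpha ring was 63.0, 63.3 and 66.3% of that of the beta ring in WT, against 82.1, 76.5 and 79.0% in DKO and 79.2, 77.9 and 81.5% in DKO_TG. The WT libraries lie below all others on this ratio, which does not use the scale. Psma8, an alpha subunit known from germ cells, measured 2.31, 2.32 and 1.49 RPKM in WT and 1.72, 1.72 and 1.75 in DKO and was not called (log2 difference -0.17, adjusted p = 0.314). It was called lower without WT replicate 3 and under quantile scaling (-0.53).

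In the 19S cap, 16 of 17 genes were called lower in DKO, with a median of -0.64. The base of the cap contains the ATPases Psmc1 to Psmc6 and the scaffold proteins Psmd1 and Psmd2. Psmd1 at chr1:86064387-86139151 changed most of all members. It measured 39.8, 29.0 and 33.2 RPKM in WT and 14.0, 14.8 and 14.8 in DKO. The DKO values lie within 1 RPKM of each other and all are below the lowest WT value, for a log2 change of -1.19 ± 0.11 (SE, limma adjusted p = 5.62e-05). Psmd2, the other ubiquitin-binding scaffold, measured 111, 86.0 and 95.4 RPKM in WT and 48.0, 52.8 and 49.7 in DKO (-0.94, adjusted p = 0.000148). Of its words, 17.8% are shared, mostly with Gm5422.

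Of the ATPases, 5 of 6 were called lower and did so under every scaling tried. Psmc5 measured 197, 129 and 139 RPKM in WT and 62.2, 79.5 and 69.0 in DKO, a log2 change of -1.12 ± 0.16 (SE, limma adjusted p = 0.00062). Psmc2 measured 54.1, 35.8 and 38.8 RPKM in WT and 17.9, 23.0 and 19.1 in DKO, a log2 change of -1.07 ± 0.16 (adjusted p = 0.000649). Psmc1, Psmc3 and Psmc4 changed by -0.85, -0.81 and -0.88. The exception was Psmc6 at chr14:45329788-45349705. It measured 37.0, 28.4 and 31.6 RPKM in WT and 30.5, 35.6 and 34.9 in DKO, so that the groups overlap (log2 change 0.06, 95% interval -0.19 to 0.32, adjusted p = 0.656). The 6 ATPases form 1 ring with a single copy of each. Psmc6 was 32.2, 32.4 and 35.4% of the median of the other 5 in WT and 62.9, 57.9 and 65.7% in DKO. DKO_TG had 66.7, 68.4 and 61.8%. All DKO and DKO_TG libraries were above the WT range. Under TPM, quantile scaling and plain totals, Psmc6 was called higher in DKO.

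The 11 non-ATPase subunits were all called lower, with log2 changes from -0.29 to -1.19. Psmd13 (-0.76), Psmd7 (-0.64), Psmd12 (-0.62), Psmd8 (-0.59) and Psmd6 (-0.58) belong to the lid, which sits over the ATPases. Psmd14, the enzyme that cuts ubiquitin off the substrate, measured 40.1, 32.7 and 38.7 RPKM in WT and 23.2, 29.9 and 27.5 in DKO (-0.46, limma adjusted p = 0.0108). Psmd4, a ubiquitin receptor, measured 76.1, 57.7 and 56.5 RPKM in WT and 39.4, 49.9 and 43.1 in DKO (-0.51, adjusted p = 0.0109). Neither gene had overlapping groups. Psmd11 had the smallest change (-0.29, adjusted p = 0.0244) and lost its call without WT replicate 1, DKO replicate 1 or DKO replicate 3. The non-ATPase calls went down to 2 under TPM, 5 under quantile scaling and 6 under plain totals, so they depend on the scale more than those of the ATPases.

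Of the assembly factors few were called. Psmg1, a chaperone that pairs with Psmg2 to build the alpha ring, measured 27.2, 20.1 and 22.1 RPKM in WT and 15.1, 15.8 and 14.3 in DKO (log2 change -0.59, limma adjusted p = 0.0149), a call lost without WT replicate 1 (adjusted p = 0.051 there). Psmg2, Psmg3 and Psmg4 were not called, with log2 differences of -0.18, -0.01 and -0.51, and Psmg4 was called lower without DKO replicate 2. Among the ATPase ring chaperones Psmd5, Psmd9 and Psmd10, Psmd9 was called (-0.27, adjusted p = 0.0378), but its call was lost in 12 of 20 alternatives, and 24.9% of its words are shared with the antisense Gm26745.

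Of the 4 activators, which open the core in place of the cap, and the inhibitor Psmf1, 4 of 5 were called lower, Psme4 being the exception. The lower calls numbered 0 under TPM, 2 under quantile scaling and 1 under plain totals, and Psme4 was called higher under TPM and plain totals. Psme3 (PA28 gamma, the nuclear activator) measured 44.5, 36.5 and 37.2 RPKM in WT and 24.6, 27.1 and 23.7 in DKO (log2 change -0.64, limma adjusted p = 0.000802). Psme1 and Psme2, which form the interferon-inducible PA28 ring, changed by -0.37 and -0.57. The Psme1 call was lost in 13 of 20 alternatives, and 28.3% of the words of Psme2 are shared, mostly with Psme2b. Psme4 (PA200) measured 15.5, 13.5 and 15.1 RPKM in WT and 16.3, 15.3 and 13.9 in DKO (0.05, 95% interval -0.17 to 0.26, adjusted p = 0.685). As a share of Psme3, Psme4 stood at 37.4 ± 2.9% with WT, 60.6 ± 5.18% with DKO and 56.5 ± 3.18% with DKO_TG (SD, n = 3). Psmf1, the inhibitor PI31, measured 6.84, 6.52 and 6.76 RPKM in WT and 4.67, 4.68 and 4.62 in DKO (-0.48, adjusted p = 0.00074), groups that did not overlap.

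**Figure D3:**
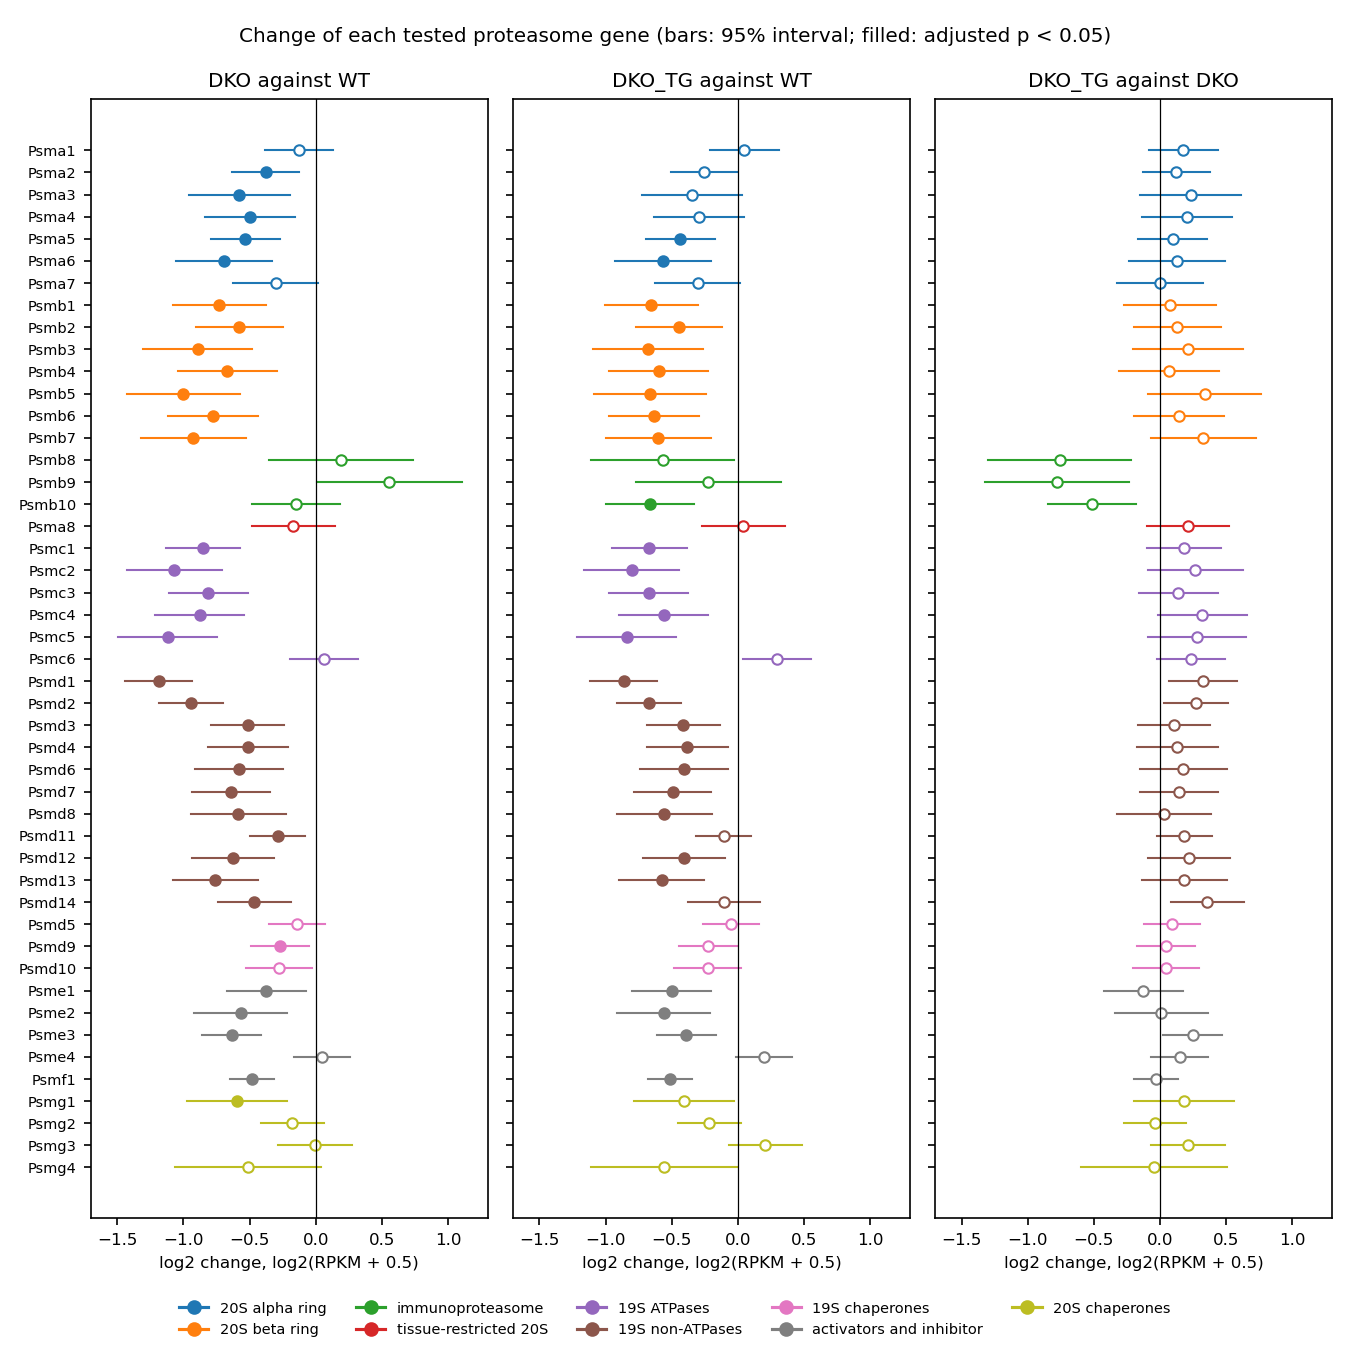
Log2 change of each tested proteasome gene on log2(RPKM + 0.5), in 3 panels for the 3 comparisons, with 95% intervals and filled points where the adjusted p is under 0.05; colours mark subgroups. Filled points lie left of 0 in both comparisons with WT. In DKO against WT, only Psmc6, Psme4, Psmb8 and Psmb9 lie right of 0, all unfilled. The panel of DKO_TG against DKO has no filled point.

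None of the 3 immunoproteasome genes was called in DKO against WT, where all 3 constitutive counterparts were called lower. Psmb8 at chr17:34197721-34201454 measured 8.78, 5.43 and 7.94 RPKM in WT and 6.66, 10.7 and 8.14 in DKO (log2 change 0.19, 95% interval -0.35 to 0.73, limma adjusted p = 0.514). Psmb9 at chr17:34181987-34187764 measured 4.5, 2.94 and 4.07 RPKM in WT and 5.06, 6.94 and 5.52 in DKO. Every DKO library was above every WT library, but the change of 0.56 (95% interval 0.01 to 1.10) was not called (adjusted p = 0.0768). Psmb10 at chr8:105935735-105938444 measured 27.8, 22.9 and 26.3 RPKM in WT and 19.5, 29.1 and 21.5 in DKO (-0.15, adjusted p = 0.4), and without DKO replicate 2, its highest DKO library, it was called lower. Psmb9 was called higher under TPM, plain totals, the fit of 6 libraries and without DKO_TG replicate 1 or 2, with adjusted p between 0.00326 and 0.25 over all 20 alternatives. All 3 genes were called higher under TPM and none under quantile scaling.

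Each immunoproteasome subunit replaces 1 constitutive subunit, and the ratio of the pair within a library is free of the scale. Psmb9 was 3.34, 2.95 and 4.04% of Psmb6 in WT, against 9.15, 9.54 and 8.33% in DKO and 6.82, 2.84 and 4.47% in DKO_TG. Psmb10 was 80.9, 96.7 and 104% of Psmb7 in WT, against 174, 174 and 142% in DKO and 94.9, 77.8 and 95.7% in DKO_TG. Psmb8 was 5.03, 4.25 and 6.49% of Psmb5 in WT, against 11.1, 11.7 and 13.2% in DKO and 7.57, 4.06 and 4.99% in DKO_TG. For each of the 3 pairs all DKO libraries were above all WT libraries and above all DKO_TG libraries, and those of WT and DKO_TG overlapped. The summed immunoproteasome RPKM relative to the summed constitutive RPKM came to 13.3 ± 1.89% for WT, 25.0 ± 0.745% for DKO and 13.7 ± 2.57% for DKO_TG (SD, n = 3). DKO_TG replicate 1 was the highest of its group, at 16.4%. These ratios carry no test, since the members were chosen with earlier results known.

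**Figure D4:**
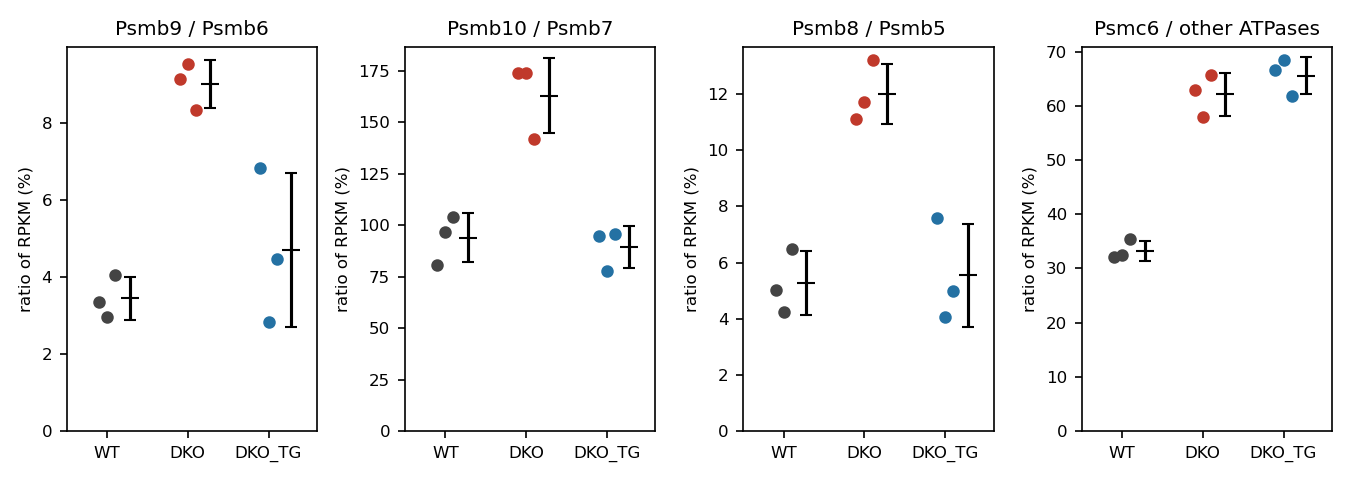
Ratios of RPKM within each library, in percent, as points per library with mean and SD beside them, on axes that start at 0. In the pairs Psmb9 over Psmb6, Psmb10 over Psmb7 and Psmb8 over Psmb5, all DKO points lie above those of WT and DKO_TG. The means of Psmc6 over the median of the other ATPases lie at 33.3% in WT, 62.2% in DKO and 65.6% in DKO_TG.

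Immunoproteasome genes are abundant in leukocytes, and several leukocyte markers were higher in DKO than in the other groups. The 14 markers summed to 105 to 132 RPKM in WT, 143 to 245 in DKO and 116 to 169 in DKO_TG. None was at 0 in every library, and the lowest was Cd3e with a mean of 0.148 RPKM. Of the 12 tested, 6 were called higher and 0 lower in DKO against WT, and 0 higher and 7 lower in DKO_TG against DKO. Over all tested genes 30.8% were higher in DKO and 1.73% lower in DKO_TG against DKO. Under TPM and under plain totals, 11 of 12 were called higher in DKO. In DKO_TG against WT, 2 were called higher (Ptprc and Lyz2) and 2 lower (Csf1r and Laptm5). Lyz2, a lysozyme of myeloid cells, had means of 65.6, 95.9 and 111 RPKM in WT, DKO and DKO_TG. Ptprc, the pan-leukocyte phosphatase CD45, measured 0.268, 0.28 and 0.352 RPKM in WT, against 1.97, 4.56 and 3.48 in DKO and 0.961, 0.813 and 0.906 in DKO_TG. The part of leukocytes in the immunoproteasome values was not tested. Oocyte markers summed to 13.7 to 29.6 RPKM in WT, 28.5 to 65.7 in DKO and 41.6 to 61.1 in DKO_TG, with 3 of 6 called higher in DKO and 5 in DKO_TG. Granulosa markers summed to 1650 to 2240, 1000 to 2000 and 1500 to 1820 RPKM, with Foxl2 called lower in both comparisons with WT and Amh in DKO_TG against WT, calls that were lost under TPM, quantile scaling and plain totals. Their part in the fall of the other subunits was not tested either.

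In DKO_TG against WT, which uses the same WT libraries, 28 of 47 members were called lower and 0 higher by limma, against 22.3% lower and 29.1% higher among all tested genes. At an unadjusted p under 0.05, 33 were lower and 1, Psmc6, was higher, where 10896 of all 18889 tested genes passed in either direction. Voom called 31 members lower and 0 higher. The median log2 change of the members was -0.45. In the band of protein-coding genes with at least 10 RPKM, 36.9% were called lower and 15.6% higher, and 27 of the 40 members in it. Under TPM the members called were 3 lower and 13 higher, under quantile scaling 9 lower and 3 higher, and under plain totals 15 lower and 5 higher. With 1 library left out at a time, lower calls ranged from 19 to 29. Below the median of all genes lay 42 members as deposited, 43 under TPM, 42 under plain totals and 28 under quantile scaling, where the members' median less that of all genes was -0.0479.

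The calls in DKO_TG against WT differed between the parts of the complex. The beta ring had 7 of 7 called lower (median -0.63), the alpha ring 2 of 7 (Psma5 and Psma6, median -0.30), the ATPases 5 of 6 (median -0.67) and the non-ATPases 9 of 11 (median -0.41). These counts depend on the scale: under TPM 0 beta ring genes, 2 ATPases and 1 non-ATPase were called lower, under quantile scaling 1, 3 and 1, and under plain totals 5, 5 and 3. Of the alpha ring, 0 were called lower under each of these scalings, and 4, 1 and 1 in turn were called higher. Also called higher were 1 ATPase under each scaling and 2 non-ATPases under TPM. Psmd1 measured 18.8, 18.3 and 17.8 RPKM, between DKO and WT, with a log2 change of -0.86 against WT (limma adjusted p = 0.000347). Psmc5 measured 85.3, 86.3 and 83.2 RPKM (-0.84, adjusted p = 0.00293) and Psmc2 24.1, 25.2 and 22.9 RPKM (-0.80, adjusted p = 0.00309). These 3 were the members called lower under all 20 alternatives. Psmb5 measured 84.1, 91.0 and 89.0 RPKM (-0.66, adjusted p = 0.0167), a call lost without WT replicate 1 or DKO_TG replicate 1. Psmc6 measured 39.4, 41.4 and 37.9 RPKM, all above the highest WT library at 37.0, and was not called (0.30, adjusted p = 0.0552), but was called higher without WT replicate 1 or DKO replicate 1 and under TPM, quantile scaling and plain totals. The calls of Psmd4, Psmd6 and Psmd12 were lost without any 1 of the DKO_TG libraries. Those of Psma6, Psmb2, Psmb7, Psmd3 and Psmd8 were lost without DKO_TG replicate 1 or 3, that of Psmb4 without DKO_TG replicate 1, and those of Psmb2 and Psmb7 also without WT replicate 1.

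Psmb10 was called lower in DKO_TG against WT. It measured 16.7, 15.1 and 16.1 RPKM, all below the lowest WT value of 22.9, for a log2 change of -0.67 (limma adjusted p = 0.00521), a call lost under TPM alone of the 20 alternatives. Psmb8 measured 6.36, 3.69 and 4.44 RPKM (-0.57, adjusted p = 0.0747) and Psmb9 4.52, 2.09 and 3.29 RPKM (-0.22, adjusted p = 0.465), both overlapping WT. Psmb8 was called lower without WT replicate 2 or without DKO_TG replicate 1. Psme1 and Psme2, the interferon-inducible activators, were called lower at -0.50 and -0.56. Both calls were lost under TPM, quantile scaling and plain totals, and Psme1 turned to 0.0249 under TPM.

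Between DKO_TG and DKO, which differ by the labelled transgene, limma called 0 members in either direction, against 1.73% of all tested genes lower and 0.498% higher. At an unadjusted p under 0.05 there were 7, of which Psmd1, Psmd2, Psmd14 and Psme3 were higher and Psmb8, Psmb9 and Psmb10 lower. Of all 18889 tested genes, 2987 passed that threshold in either direction, a similar share. Voom called 0 members. The members' median was 0.15, against 0.03 for all tested genes, with 39 of 47 above 0. With 1 library left out it ranged from 0.072 without DKO replicate 1, where 32 lay above 0, to 0.222 without DKO replicate 2, where 43 did. The 3 immunoproteasome genes lay below 0, with log2 differences of -0.76 (95% interval -1.30 to -0.22, adjusted p = 0.164) for Psmb8, -0.78 (-1.33 to -0.23, adjusted p = 0.157) for Psmb9 and -0.52 (-0.85 to -0.18, adjusted p = 0.123) for Psmb10. In all 3, every DKO_TG library was below every DKO library, as in 12.1% of all tested genes. Psmb10 was called lower under TPM, quantile scaling and plain totals, with adjusted p between 0.0328 and 0.351 over the 20 alternatives. In the band of protein-coding genes with at least 10 RPKM, 0 of 40 members were called, against 1.42% of genes lower and 0.499% higher. The 17 cap genes were all above 0, with a median of 0.18, and Psmd1 stood at 0.32 (adjusted p = 0.204).

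Members differed in how far they fell. Across the 47 tested members Spearman's rho between the log2 change in DKO and the mean RPKM was -0.583, so highly expressed members lay lower. The value was -0.164 with GC content and 0.0961 with transcript length. In DKO_TG against WT the values were -0.47, -0.45 and 0.178, so that members richer in GC also lay lower there. Members share libraries, scale and WT values, and the pseudocount of 0.5 understates changes of low genes, so these are descriptions only. In WT the order of levels among subunits ran from Psma6, Psmc5, Psmb5 and Psmb6 at the top to Psmb9, Psma8 and Psmb11 at the bottom. Psma6 at 166 ± 30.3, Psmc5 at 155 ± 36.9 and Psmb5 at 142 ± 28.7 RPKM (SD, n = 3) did not differ beyond their spread.

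Many proteasome genes share a start region with another gene. A protein-coding gene began on the opposite strand within 1000 bases of the start of 12 of 48 members (25%), against 10.8% of 22028 protein-coding genes. Of the 10 such partners tested, 4 were called higher and 2 lower in DKO, and 5 higher and 0 lower in DKO_TG against WT. Over all tested genes the shares were 30.8% higher and 25.9% lower in DKO and 29.1% and 22.3% in DKO_TG. Psmb1 changed by -0.73 in DKO while Tbp, the TATA-binding protein, changed by 0.64 (limma adjusted p = 0.000306). Psmd13 changed by -0.76 while the deacetylase gene Sirt3 changed by 0.72 (adjusted p = 0.00139), and 8.23% of the words of Psmd13 are shared, chiefly with Sirt3. Psmc2 and Psmc5 fell together with their partners Dnajc2 (-0.37) and Ftsj3 (-0.41). Psmb9 and the peptide transporter Tap1, which share a start region in the MHC, had log2 differences of 0.56 and 0.36 in DKO and of -0.78 and -0.52 in DKO_TG against DKO, none of them called.

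Genes around the proteasome were read from a list of 26 cofactors, ubiquitin genes and regulators, of which 25 were found and tested. In DKO, 12 were called lower and 5 higher with a median of -0.33, and in DKO_TG against WT 8 lower and 5 higher with a median of -0.18. Between DKO_TG and DKO 0 were called, the smallest adjusted p being those of Ubqln1 (0.28 in log2, adjusted p = 0.203), Usp14, Akirin2 and Txnl1. Among all tested genes 25.9% were lower in DKO and 22.3% in DKO_TG against WT, and in the band of at least 10 RPKM 43.0% and 36.9%. Under TPM the counts became 3 lower and 9 higher in DKO, and 1 lower and 13 higher in DKO_TG. Uba1, the enzyme that activates ubiquitin, measured 185, 143 and 149 RPKM in WT, against 72.2, 70.6 and 72.1 in DKO and 83.5, 81.3 and 83.2 in DKO_TG. Its groups did not overlap, and its log2 change was -1.13 in DKO (limma adjusted p = 6.66e-05) and -0.93 in DKO_TG, lower under each of 4 other scalings. Vcp, the unfoldase that hands substrates to the proteasome, changed by -0.83 in DKO and -0.63 in DKO_TG, and the shuttle factor Ubqln1 by -0.68 in DKO. Vcp was not called in DKO under quantile scaling nor in DKO_TG under TPM or quantile scaling, and Ubqln1 was not called in DKO under TPM. Of the words of Vcp, 43.6% are shared, mostly with Vcp-rs. Zfand2a, a heat-inducible cofactor of the proteasome, was called higher in DKO_TG (0.73). Pomp, the chaperone for beta ring assembly, named here after its values were seen, measured 40.3, 26.5 and 30.4 RPKM in WT and 12.9, 20.2 and 14.3 in DKO (-1.02, adjusted p = 0.00239). Nfe2l1, likewise, measured 98.1, 91.1 and 94.3 RPKM in WT and 83.1, 67.2 and 75.2 in DKO (-0.33, adjusted p = 0.0187), with a sign that turns under TPM (0.22) and quantile scaling (0.25).

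The other list held 17 genes of interferon control and MHC class I peptide loading, the setting in which immunoproteasomes act. In DKO, 6 were called higher and 4 lower with a median of 0.23, near the shares of all tested genes (30.8% higher and 25.9% lower). Under TPM the counts were 13 higher and 1 lower, under quantile scaling 7 and 2, and under plain totals 10 and 2. In DKO_TG against WT, 2 were called higher and 5 lower with a median of -0.17, against 6 and 0 under TPM, and in DKO_TG against DKO 0 were called with a median of -0.33, but 2 were called lower under TMM and 3 under each of TPM, quantile scaling and plain totals. Nlrc5, the transactivator of MHC class I genes, measured 0.17, 0.34 and 0.509 RPKM in WT, against 2.55, 2.26 and 2.3 in DKO and 2.13, 1.06 and 1.68 in DKO_TG, a log2 change of 1.79 in DKO (limma adjusted p = 0.000172). Irf1, which drives immunoproteasome genes after interferon, measured 6.28, 6.95 and 8.83 RPKM in WT, against 14.2, 15.2 and 13.2 in DKO and 10.4, 8.83 and 10.3 in DKO_TG (0.92 in DKO, adjusted p = 0.000494). Between DKO_TG and DKO, Irf1 stood at -0.51 and was not called (adjusted p = 0.0893). All DKO libraries exceeded all WT libraries for both genes, and both were called higher in DKO under each of 4 other scalings. Calr, a chaperone of peptide loading in the endoplasmic reticulum, changed by -1.06 in DKO and Pdia3, an oxidoreductase of the same complex, by -0.66. In DKO_TG against WT they changed by -0.73 and -0.48. Calr was not called in DKO_TG against WT under TPM (-0.198) or quantile scaling (-0.0727). Pdia3 turned to 0.06 in DKO and 0.18 in DKO_TG under quantile scaling. Tapbp (tapasin), which holds MHC class I at the peptide transporter, changed by -0.72 in DKO_TG against WT and stood at -0.66 against DKO, where it was not called (adjusted p = 0.062) but was called lower under each of 4 other scalings. H2-K1 and H2-D1, the MHC class I heavy chains, were highest in DKO, with means of 183 ± 31.5 and 131 ± 23.4 RPKM (SD, n = 3). WT had 112 ± 12.8 and 92.2 ± 9.89 RPKM, and DKO_TG had 112 ± 16.7 and 73.4 ± 15.0. Between DKO_TG and DKO their log2 differences were -0.70 (adjusted p = 0.0742) and -0.83 (adjusted p = 0.052), not called. H2-D1 was called lower there under each of 4 other scalings, and H2-K1 under TPM and plain totals. They share 9.63 and 12.8% of their words with related genes.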

How the data were processed

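Total RNA of 9 ovary libraries was sequenced by the study, 3 per genotype, and groups and replicate numbers come from the sample labels. The authors deposited 1 table of RPKM values. Per the submitters' processing notes the tools, in no stated order, include HISAT2 2.1.0, cutadapt, DESeq2 1.2.8 and HTSeq 0.5.4p5, with mm10 as the build. How the RPKM were made, with which annotation and strand setting, is not given in the sources used here. Columns of DKO_TG, which spell the transgene in another way than the titles, were assigned by group and replicate number.

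RPKM times the exon length in GENCODE M21 gave whole reads for 97.6 to 97.9% of values above 0 in each library (within 0.01 read or a relative difference of 1e-06), with Psmb8, Psmb9 and Psmg2 among the genes that did not come out whole in all libraries. The tests ran on log2(RPKM + 0.5) with limma 3.58.1 (eBayes with a trend) in R 4.3.3, on all 9 libraries in 1 fit and on genes with RPKM of at least 0.5 in 3 libraries. Benjamini-Hochberg adjustment ran over all 18889 genes. Fold changes on this scale understate those of low genes. On simulated reads, 70% of genes changed 2-fold and 95% changed 4-fold were recovered for DKO against WT, 74 and 96% for DKO_TG against WT, and 77 and 95% for DKO_TG against DKO. Only 100 genes per fold were changed there, and library sizes did not shift with genotype as they do in the data. Changes below 2-fold were not simulated, so these rates do not cover them. Alternatives were other pseudocounts, filters and scalings, voom on recovered reads, a fit of the 6 libraries compared, the replicate number as a block, and leaving out each library. Shared sequence is the share of 50-base words of a gene's exons found in exons of other genes.

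The members, lists and named genes were chosen with earlier results of these data known. Named genes of the cofactor and interferon lists are the 4 with the smallest adjusted p in each comparison, and others are said to be chosen later. A gene that this rule names is not reported here.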

Additional observations from a re-analysis of the deposited data

How the results depend on the processing

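The deposited scale decided most of what moved. For DKO against WT, members called lower numbered 11 under TPM, 18 under quantile scaling and 19 by plain read total, against 34, and members called higher numbered 11, 2 and 3, against 0. The fit of only the 6 libraries compared called 1 higher (Psmb9). For DKO_TG against WT the lower calls were 3, 9 and 15, against 28, and the higher calls 13, 3 and 5, against 0. For DKO_TG against DKO, TPM, quantile scaling and plain totals each called 1 member lower (Psmb10), against 0. With 1 library left out, lower calls ranged from 29 to 38 and higher calls from 0 to 1 for DKO against WT, from 19 to 29 and 0 to 1 for DKO_TG against WT, and stayed at 0 for DKO_TG against DKO. Pseudocounts, filters, TMM and voom left these counts within 1.5 times. Of the 34 members called lower in DKO, 10 were called under all 20 alternatives, and of the 28 in DKO_TG, 3.

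The replicate numbers do not pair the libraries: deviations of same-numbered libraries correlated between -0.309 and 0.142. With the replicate block, 31 members were called lower in DKO against WT and 24 in DKO_TG against WT, with 0 higher in both and 0 in DKO_TG against DKO.

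Some members changed sign where they were called in at least 1 of the fits. The log2 changes in DKO against WT under TPM were Psma1 0.418, Psma2 0.168, Psma4 0.0528, Psma5 0.0177, Psma7 0.243, Psmb10 0.392, Psmd10 0.262, Psmd11 0.243 and Psmd14 0.081. The same scaling gave Psmd3 0.0263, Psmd4 0.0356, Psmd5 0.373, Psmd9 0.21, Psme1 0.176, Psmf1 0.0254, Psmg2 0.364 and Psmg3 0.488. With plain totals they were Psmd11 0.0156 and Psmd9 0.00401, and with quantile scaling Psma1 0.304, Psma2 0.0573, Psma5 0.044 and Psme1 0.104. In DKO_TG against WT under TPM they were Psma2 0.268, Psma4 0.234, Psma5 0.0919, Psma7 0.22, Psmb2 0.0807, Psmd10 0.285, Psmd11 0.404, Psmd12 0.119 and Psmd14 0.417. The same scaling gave Psmd3 0.108, Psmd4 0.143, Psmd5 0.444, Psmd6 0.118, Psmd7 0.0323, Psme1 0.0249, Psme3 0.133 and Psmg2 0.304. With plain totals the value was Psmd5 0.198, and with quantile scaling Psma5 0.0726, Psma6 0.0245, Psmb2 0.0241 and Psmd4 0.0351. The scaling itself shifts all genes, as its construction implies, and the cause of the different library sizes was not tested.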
